A study of Mus musculus with 6 samples.

Results

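The endoplasmic reticulum (ER) chaperones and the genes of the unfolded protein response were followed in single nuclei of the mouse hippocampus. The group was a list of 34 genes, and all 34 were among the 26049 genes of the deposited matrix. The list was chosen for what the genes do, but with earlier results of these data known. It held 3 stress sensors, 3 transcription factors, 3 chaperones, 4 co-chaperones, 2 lectin chaperones, 4 disulfide isomerases, 2 stress-induced luminal proteins, 8 genes of ER-associated degradation (ERAD), 2 of protein translocation and 3 targets of ATF4.

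All mice were male and carried the Tau P301S transgene of the PS19 strain, a mutant human tau driven by the mouse prion protein promoter, so no group was free of it. The 6 libraries were TBI VEGFC left, TBI VEGFC right, TBI GFP left, TBI GFP right, sham VEGFC right and sham GFP right. TBI stands for a mild traumatic brain injury made by controlled cortical impact on the right side, and sham for the mock procedure. VEGFC stands for an adeno-associated virus (AAV) coding for VEGFC, a growth factor of lymphatic vessels, and GFP for the control virus AAV-GFP. Left and right name the hippocampus taken, so after TBI the right one lay on the injured side. Each combination had 1 library and no left sham library was analysed here. No source used here gives the age, the time after injury or the number of mice behind a library, or says whether left and right TBI libraries of a vector came from the same mice. Libraries are called matched below by their labels only. P-values below measure only the spread between these 6 libraries, which may be technical in part. In edgeR this spread was shared over genes, in some classes wholly, so a p-value need not reflect a gene's own spread.

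The ER folds proteins that are secreted or placed in membranes. When unfolded proteins build up, the chaperone BiP, made from Hspa5, leaves the sensors IRE1 (Ern1), PERK (Eif2ak3) and ATF6, and these turn on the transcription factors XBP1, ATF4 and cleaved ATF6, which raise chaperones, disulfide isomerases and ERAD genes. Prolonged PERK signalling raises CHOP (Ddit3), which is tied to cell death, and PERK is a much studied branch in tau disease models.

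ATF6 and XBP1 act in part through the ER stress element, CCAAT and CCACG separated by 9 bases. This sequence sorts the searched genes of the group into 2 sets that are set side by side below. In RefSeq promoter windows (GRCm38.p6, 250 bases before to 50 after the start site), searched on both strands, the full element lay in 8 of the 30 genes with a window (26.7%), against 37 of 27025 genes (0.137%). The 8 were Hspa5, Hsp90b1, Calr, Canx, Dnajc3, Pdia6, Creld2 and Syvn1, that is chaperones, lectins, a co-chaperone, an isomerase, a luminal protein and an ERAD ligase. CCACG by itself, counted inside the full element too, lay in 24 of 30 windows (80.0%), against 35.5% of all genes. TGATG followed after 1 base by AA, a core that ATF4 binds, lay in Asns, Chac1, Herpud1 and Trib3, or 13.3% of the 30, against 4.51% of all genes. Atf6, Manf, Derl1 and Hyou1 were not searched and stand in neither set. These matches describe letters only. The element was picked as a known feature of this gene group, so its high share there is not an independent result. The set without the full element may still hold targets of ATF6 and XBP1. The windows are on chromosome strands as follows: Hspa5 chr2:34771840-34772139 plus, Hsp90b1 chr10:86705395-86705694 minus, Calr chr8:84846882-84847181 minus, Canx chr11:50325624-50325923 minus, Dnajc3 chr14:118937682-118937981 plus, Pdia6 chr12:17266339-17266638 plus, Creld2 chr15:88819396-88819695 plus and Syvn1 chr19:6046326-6046625 plus. They are shown from 5′ to 3′ on each gene's strand with the element in capitals, which read CGTGG and ATTGG where it lies on the other strand. Hspa5 is given whole as the best known target, and the others by the stretch around the element, where Hsp90b1 holds 2 elements.
Hspa5: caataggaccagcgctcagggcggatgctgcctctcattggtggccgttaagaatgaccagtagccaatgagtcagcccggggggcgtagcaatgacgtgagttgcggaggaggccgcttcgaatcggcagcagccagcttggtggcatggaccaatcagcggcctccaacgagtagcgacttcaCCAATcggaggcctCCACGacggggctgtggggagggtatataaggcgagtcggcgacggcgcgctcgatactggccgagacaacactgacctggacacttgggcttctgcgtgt
Hsp90b1: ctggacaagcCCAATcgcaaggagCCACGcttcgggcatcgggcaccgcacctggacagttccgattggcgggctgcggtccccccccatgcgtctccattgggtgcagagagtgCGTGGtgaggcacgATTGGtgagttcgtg
Calr: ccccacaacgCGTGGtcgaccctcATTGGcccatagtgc
Canx: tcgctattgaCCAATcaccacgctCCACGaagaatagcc
Dnajc3: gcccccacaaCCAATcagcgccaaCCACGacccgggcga
Pdia6: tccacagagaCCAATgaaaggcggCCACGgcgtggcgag
Creld2: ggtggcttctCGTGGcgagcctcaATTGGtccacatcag
Syvn1: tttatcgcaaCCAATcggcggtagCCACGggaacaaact

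The element of Hspa5 ended at base -47 relative to the start site and that of Syvn1 at base -26. Those of Pdia6, Dnajc3 and Creld2 ended at bases -80, -87 and -108, and those of Canx and Calr at bases -127 and -144. Hsp90b1 had its elements ending at bases -194 and -89, facing in opposite directions.

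The libraries held 3676 to 6002 nuclei and 15358208 to 18379148 unique molecular identifiers (UMIs) each, with medians of 2689 to 3703.5 UMIs per nucleus, highest in the TBI VEGFC left library and lowest in the sham VEGFC right library. The authors' annotation divides the 28650 nuclei into 9 classes and 32 clusters. In all, 91 cell barcodes were found in more than 1 library, which touched 22 to 50 nuclei of each library. Markers of choroid plexus summed to 29705 to 32214 CPM (UMIs of a gene per 1000000 UMIs of the class in a library) in choroid plexus epithelial nuclei and to at most 2587 CPM in the libraries of any other class. Microglia (40 to 138 nuclei per library) and fibroblasts (27 to 102) were the smallest classes. A deposited doublet score of at most 0.05 was found in 100 of 406 microglial nuclei, with 0 to 94 per library, and in 58 of 412 fibroblast nuclei. The mean microglial score was 0.0432 in the TBI VEGFC left library and 0.0681 to 0.085 in the others. The part of doublets in the levels and folds of these classes was not tested.

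Across classes, the genes of the group stood highest in microglia, choroid plexus epithelial nuclei and oligodendrocytes, and lowest in neurons. For each gene, the log2(CPM + 1) of a class was set against the gene's mean over the 9 classes, and the median over the 34 genes averaged 0.48 ± 0.13 in microglia, 0.24 ± 0.15 in choroid plexus epithelial nuclei and 0.20 ± 0.11 in oligodendrocytes (SD, n = 6 libraries). It was 0.04 ± 0.17 in fibroblasts, 0.02 ± 0.06 in oligodendrocyte precursors (OPC), -0.04 ± 0.07 in astrocytes, -0.22 ± 0.13 in mixed neurons, -0.31 ± 0.05 in inhibitory neurons and -0.35 ± 0.07 in excitatory neurons. The libraries of oligodendrocytes (0.04 to 0.29) and of choroid plexus epithelial nuclei (0.11 to 0.53) all lay above those of excitatory neurons (-0.46 to -0.23). Of the 34 genes, 29 stood above their own mean in oligodendrocytes and 7 in excitatory neurons, and 11 had their highest class in microglia. Among 11814 genes of at least 10 CPM, with 30 of the group, 46.1% stood above their mean in oligodendrocytes against 27 of the 30, 42.1% in microglia against 24 of the 30 and 45.8% in excitatory neurons against 4 of the 30. Microglia were the highest class for 20.6% of these genes and for 11 of the 30. For choroid plexus epithelial nuclei that background was 60.6% of genes against 19 of the 30, so the group stood there much as genes did in general. All class comparisons are descriptions without a test, and levels are read within a gene, since UMI counts are not scaled for gene length and nuclear RNA differs from whole-cell RNA.

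**Figure D1:**
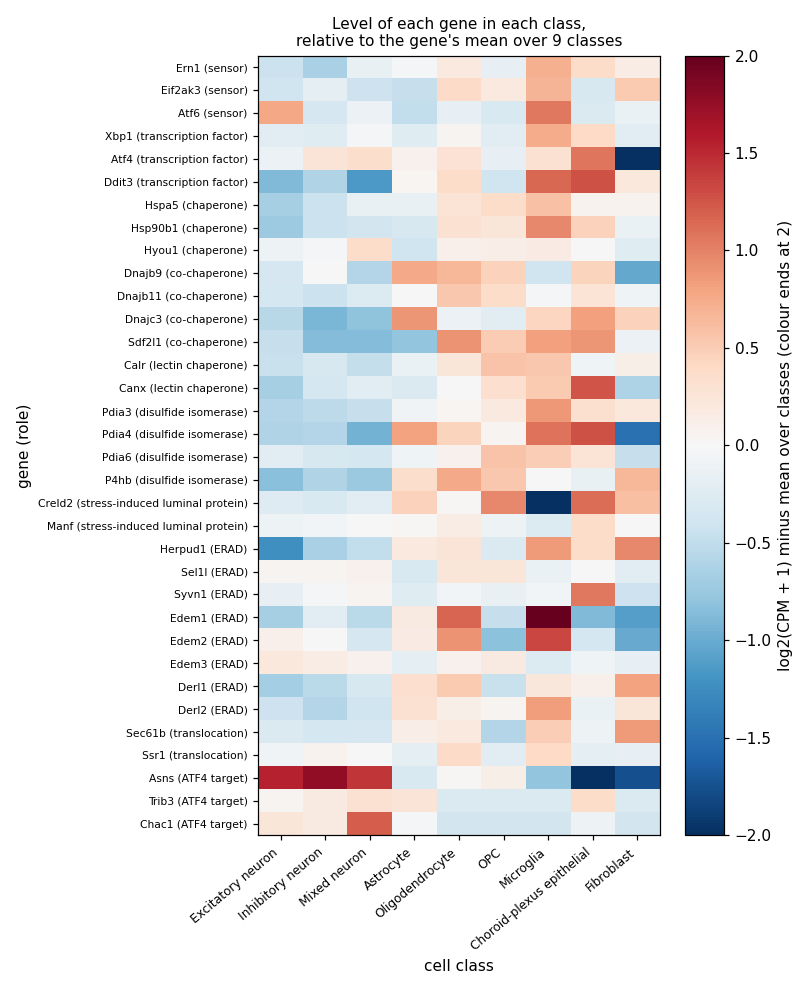
Each row is 1 of the 34 genes and each column 1 of the 9 classes. Colour gives the mean over 6 libraries of log2(CPM + 1) minus the gene's mean over classes, red above and blue below it. Of the 34 rows, 7 lie above the mean in excitatory neurons and 29 in oligodendrocytes, and Asns is darkest red in the neuron classes.

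Here and for the genes below, classes run from highest to lowest, and neighbours in the order had overlapping library ranges unless stated. Ern1, the sensor that splices Xbp1 mRNA, averaged 69.5 CPM in microglia (17.2 to 110.4 over the 6 libraries), 48.1 CPM in choroid plexus epithelial nuclei, 44.7 CPM in fibroblasts, 42.6 CPM in oligodendrocytes, 35.7 CPM in astrocytes, 35.2 CPM in OPC, 33.99 CPM in mixed neurons, 26.8 CPM in excitatory neurons and 23.04 CPM in inhibitory neurons (19.9 to 25.7 over the 6 libraries). Eif2ak3, the kinase that phosphorylates eIF2 alpha, averaged 62.1 CPM in microglia (14.5 to 147 over the 6 libraries), 46.7 CPM in fibroblasts, 38.99 CPM in oligodendrocytes, 34.4 CPM in OPC, 26.1 CPM in inhibitory neurons, 24.8 CPM in choroid plexus epithelial nuclei, 24.3 CPM in mixed neurons, 22.1 CPM in excitatory neurons and 21.5 CPM in astrocytes (15.8 to 25.9 over the 6 libraries). Atf6, the sensor that is cut in the Golgi, was the one sensor high in a neuron class, with 228 CPM in microglia (205 to 307 over the 6 libraries), 184 CPM in excitatory neurons, 100.2 CPM in fibroblasts, 99.4 CPM in mixed neurons, 97.1 CPM in oligodendrocytes, 88.3 CPM in choroid plexus epithelial nuclei, 87.8 CPM in OPC, 84.5 CPM in inhibitory neurons and 76.3 CPM in astrocytes (60.5 to 90.3 over the 6 libraries). The library ranges of neighbours in this order overlapped except between microglia and excitatory neurons and between excitatory neurons and fibroblasts.

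Of the transcription factors, Xbp1 averaged 59.03 CPM in microglia (36.8 to 81.95 over the 6 libraries), 50.97 CPM in fibroblasts, 46.2 CPM in choroid plexus epithelial nuclei, 35.02 CPM in oligodendrocytes, 33.8 CPM in mixed neurons, 33.3 CPM in OPC, 28.5 CPM in excitatory neurons, 28.4 CPM in astrocytes and 28.1 CPM in inhibitory neurons (23.8 to 30.7 over the 6 libraries). Atf4, which is controlled mainly at translation, averaged 37.9 CPM in choroid plexus epithelial nuclei (30.4 to 47.2 over the 6 libraries), 24.7 CPM in microglia, 24.5 CPM in mixed neurons, 23.9 CPM in oligodendrocytes, 21.3 CPM in inhibitory neurons, 20.2 CPM in OPC, 19.01 CPM in astrocytes, 16.1 CPM in excitatory neurons and 10.1 CPM in fibroblasts (0 to 31.7 over the 6 libraries). Ddit3, which codes for CHOP, averaged 40.8 CPM in choroid plexus epithelial nuclei (21.8 to 51.9 over the 6 libraries), 38.8 CPM in microglia, 24.7 CPM in fibroblasts, 20.7 CPM in oligodendrocytes, 16.2 CPM in astrocytes, 12 CPM in OPC, 10.1 CPM in inhibitory neurons, 8.05 CPM in excitatory neurons and 7.31 CPM in mixed neurons (2.39 to 13.3 over the 6 libraries). All of the Ddit3 libraries of choroid plexus epithelial nuclei thus lay above those of excitatory neurons. Reads of Ddit3 and of the gene Mars on the other strand cannot be told apart where the 2 overlap, unless the counting used strand, which the sources used here do not state. Derl2, Dnajb11, Herpud1, Manf, Pdia3, Pdia6 and Syvn1 also overlap a gene on the other strand, and the annotation lists Ddit3 under 2 identifiers.

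Hspa5, or BiP, the Hsp70 of the ER lumen, averaged 149 CPM in microglia (85.95 to 202 over the 6 libraries), 128 CPM in OPC, 117 CPM in oligodendrocytes, 106 CPM in fibroblasts, 104 CPM in choroid plexus epithelial nuclei, 89.1 CPM in mixed neurons, 87.3 CPM in astrocytes, 71.3 CPM in inhibitory neurons and 60.3 CPM in excitatory neurons (52.5 to 71.5 over the 6 libraries). Hsp90b1, or GRP94, the Hsp90 of the lumen, averaged 325 CPM in microglia (277 to 413 over the 6 libraries), 237 CPM in choroid plexus epithelial nuclei, 206 CPM in oligodendrocytes, 199.6 CPM in OPC, 159.6 CPM in fibroblasts, 134 CPM in astrocytes, 128 CPM in mixed neurons, 123 CPM in inhibitory neurons and 101 CPM in excitatory neurons (82.8 to 121 over the 6 libraries). The lowest microglial library of Hsp90b1 still lay above the highest excitatory one. Hyou1 averaged between 14.2 CPM in astrocytes and 25.9 CPM in mixed neurons, and it codes for GRP170, which exchanges nucleotides on BiP. Of the J-domain co-chaperones of BiP, Dnajc3 averaged 218 CPM in astrocytes and 209 CPM in choroid plexus epithelial nuclei and was lowest in inhibitory neurons, at 62.4 CPM. Dnajb9 averaged between 14.7 CPM in excitatory neurons and 32.6 CPM in astrocytes, and Dnajb11 averaged between 27.8 CPM in inhibitory neurons and 54.97 CPM in oligodendrocytes. Sdf2l1 averaged between 3.90 CPM in inhibitory neurons and 23.8 CPM in microglia, with 603 UMIs in all, and it is a partner of ERdj3.

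The lectin chaperones hold newly made glycoproteins. Calr, calreticulin, averaged 122 CPM in microglia (68.8 to 213 over the 6 libraries), 116 CPM in OPC, 91.5 CPM in oligodendrocytes, 86.2 CPM in fibroblasts, 75.1 CPM in choroid plexus epithelial nuclei, 71.1 CPM in astrocytes, 61.4 CPM in inhibitory neurons, 57.8 CPM in mixed neurons and 56.6 CPM in excitatory neurons (46.9 to 68.4 over the 6 libraries). Canx, its membrane-bound relative calnexin, averaged 420.4 CPM in choroid plexus epithelial nuclei (362 to 485 over the 6 libraries), 253 CPM in microglia, 223 CPM in OPC, 176 CPM in oligodendrocytes, 153 CPM in mixed neurons, 143 CPM in astrocytes, 137 CPM in inhibitory neurons, 118 CPM in fibroblasts and 109.8 CPM in excitatory neurons (106 to 112 over the 6 libraries). The library ranges of neighbours in this order overlapped except between choroid plexus epithelial nuclei and microglia. Among disulfide isomerases, Pdia3, which works with both lectins, averaged 189 CPM in microglia (154 to 331 over the 6 libraries), 128 CPM in choroid plexus epithelial nuclei, 115 CPM in fibroblasts, 115 CPM in OPC, 101 CPM in oligodendrocytes, 94.4 CPM in astrocytes, 70.9 CPM in mixed neurons, 67.9 CPM in inhibitory neurons and 65.4 CPM in excitatory neurons (58.5 to 74.8 over the 6 libraries). The library ranges of neighbours in this order overlapped except between astrocytes and mixed neurons. P4hb, protein disulfide isomerase itself, averaged 45.2 CPM in fibroblasts (10.1 to 65.6 over the 6 libraries), 43.6 CPM in oligodendrocytes, 42.8 CPM in microglia, 36.03 CPM in OPC, 31.98 CPM in astrocytes, 23.6 CPM in choroid plexus epithelial nuclei, 15.8 CPM in inhibitory neurons, 15.7 CPM in mixed neurons and 13.3 CPM in excitatory neurons (11.9 to 14.9 over the 6 libraries). Pdia4 averaged between 9.91 CPM in mixed neurons and 47.01 CPM in choroid plexus epithelial nuclei, and Pdia6 averaged between 56.2 CPM in inhibitory neurons and 117 CPM in microglia. Of the stress-induced luminal proteins, Manf averaged between 117 CPM in microglia and 183 CPM in choroid plexus epithelial nuclei, and its gene overlaps Rbm15b on the same strand, so its reads are uncertain. Creld2 averaged between 0.800 CPM in microglia and 16.6 CPM in choroid plexus epithelial nuclei, and the microglial value rests on 1 nucleus.

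Of the ERAD genes, Herpud1, a scaffold of the complex that draws proteins out of the ER, averaged 108 CPM in microglia (40.97 to 276 over the 6 libraries), 100.01 CPM in fibroblasts, 62.3 CPM in choroid plexus epithelial nuclei, 58.4 CPM in oligodendrocytes, 55.5 CPM in astrocytes, 39.9 CPM in OPC, 35.2 CPM in mixed neurons, 30.3 CPM in inhibitory neurons and 19.98 CPM in excitatory neurons (18.3 to 22.1 over the 6 libraries). The library ranges of neighbours in this order overlapped except between inhibitory neurons and excitatory neurons. Edem1, which marks misfolded glycoproteins, averaged 128 CPM in microglia and 48.7 CPM in oligodendrocytes, the next class, with no overlap of library ranges. Oligodendrocytes (34.4 to 57.6 CPM) in turn lay above the third class, astrocytes (18.8 to 32.3 CPM). Edem2 averaged between 13.1 CPM in OPC and 67.3 CPM in microglia, and Edem3 averaged between 44.01 CPM in microglia and 60.6 CPM in OPC. Sel1l averaged between 101 CPM in astrocytes and 149 CPM in oligodendrocytes, and Syvn1 averaged between 17.9 CPM in astrocytes and 46.2 CPM in choroid plexus epithelial nuclei, and together they form the HRD1 ubiquitin ligase. The derlins are parts of the exit channel: Derl1 averaged between 29.3 CPM in excitatory neurons and 92.2 CPM in fibroblasts, and Derl2 averaged between 22.8 CPM in inhibitory neurons and 67.7 CPM in microglia. Of the translocation genes, Sec61b averaged between 7.22 CPM in OPC and 27.1 CPM in microglia, and Ssr1 averaged between 43.5 CPM in OPC and 69.97 CPM in microglia. Asns, asparagine synthetase, ran the other way from most of the group: it averaged 19.3 CPM in inhibitory neurons and 16.2 CPM in excitatory neurons, against 0.680 CPM in choroid plexus epithelial nuclei. Trib3 and Chac1, further ATF4 targets, had 37 and 56 UMIs over all nuclei and were too low to compare.

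Across the 32 clusters, microglia (median of the group 0.97 above the mean of clusters on the log2 scale), choroid plexus epithelial nuclei (0.49) and oligodendrocytes (0.43) again led. All 3 astrocyte clusters stood above 0 (0.14, 0.32 and 0.23), while the excitatory clusters ranged from -0.32 in cluster 13 to 0.01 in cluster 15. The patterns most like that of Hspa5 over these clusters were Calr (Pearson r = 0.90), P4hb (0.81), Pdia3 (0.80) and Hsp90b1 (0.79). The least like were Asns (-0.65) and Edem3 (-0.40), apart from Chac1 (-0.40), which was too low to compare. The clusters share libraries, and these values are a description.

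The first comparison asked what VEGFC did to these genes relative to GFP, over the 3 matched settings TBI left, TBI right and sham right. No gene of the group passed an adjusted p of 0.05 in any class: 0 of 221 gene and class pairs tested of 306, against 0.0281% of all pairs in edgeR's quasi-likelihood test with Benjamini-Hochberg adjustment. At an unadjusted p under 0.05, 24 of the 221 pairs (10.9%) were found, against 5.41% of all pairs. A gene counts once per class, and Pdia6 gave 5 of these pairs, Hsp90b1 4, Hspa5 3 and Calr 3, so a few genes made up most of them. DESeq2 gave 0 adjusted and 4 unadjusted pairs, and limma-voom 0 and 26. Over all genes 0 pairs passed the adjusted threshold in DESeq2 and 33 in limma-voom. Shares of all genes at an unadjusted p are not given for these tools, here or below. The remaining pairs fell under the filter on low counts, which kept 32 genes of the group in excitatory neurons but 11 in microglia and 10 in fibroblasts.

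Hsp90b1 in choroid plexus epithelial nuclei came nearest. It had 297, 369 and 194 CPM in the TBI left, TBI right and sham right VEGFC libraries, against 158, 222 and 182 CPM in the matching GFP libraries. Both TBI VEGFC libraries lay above all others, and the sham VEGFC library lay within the GFP range. The log2 fold was 0.59 (SE 0.14, adjusted p = 0.0627), positive in 3 of 3 pairs, on 76 to 164 UMIs per library. Leaving out the sham GFP library gave 0.82, leaving out the sham VEGFC library gave 0.82, and leaving out a TBI library gave 0.45 to 0.50. Both fits without a sham library rest on the same contrast among the 4 TBI libraries and are not separate checks. They keep 1 sham library, so only their folds are given, here and for the other genes of this first comparison. The neighbouring gene Gm15344 overlaps Hsp90b1 on the same strand, so reads of the 2 could be split between them.

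Other ER chaperones of this class pointed the same way without passing. Pdia6, a disulfide isomerase, had 116, 96.2 and 91.5 CPM in the TBI left, TBI right and sham right VEGFC libraries, against 78.8, 69.01 and 66.03 CPM in the matching GFP libraries. Each VEGFC value was above its partner, and the log2 fold was 0.50 (SE 0.20, adjusted p = 0.855). Creld2 had 30.6, 30.4 and 9.15 CPM in the TBI left, TBI right and sham right VEGFC libraries, against 6.22, 12.2 and 11 CPM in the matching GFP libraries. The TBI VEGFC libraries were high and the sham VEGFC library was below its partner, with a log2 fold of 1.15 (SE 0.49, adjusted p = 0.923) on 3 to 14 UMIs per library. Hspa5 had 164, 111 and 82.3 CPM in the TBI left, TBI right and sham right VEGFC libraries, against 72.6, 98.8 and 95.9 CPM in the matching GFP libraries. Its sham VEGFC library was below its partner, and the log2 fold was 0.37 (SE 0.19, adjusted p = 0.944).

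Over the 29 genes of the group tested in this class, 22 had positive folds and the median was 0.30, against a median of 0.00 over 9109 genes. An unadjusted p under 0.05 was found for 6 of the 29, against 5.2% of genes. All 8 genes with the full promoter element had positive folds, with a median of 0.35, and 12 of 17 searched genes without it did, with a median of 0.29. By pair, 8 of 8 element genes were higher with VEGFC in TBI left (median difference 0.54 on the log2(CPM + 1) scale), 7 of 8 in TBI right (0.58) and 2 of 8 in sham right (-0.12). By pair, the median of the 29 genes was 0.44 in TBI left, 0.17 in TBI right and -0.02 in sham right. The class had 133 and 153 nuclei in the TBI VEGFC libraries, against 215 and 287 in the TBI GFP libraries, and its deepest nuclei were in the TBI VEGFC left library, with a median of 3342 UMIs against 1959 to 2503 in the others. Astrocyte markers in this class summed to 78.6 and 60.7 CPM in the TBI left and right VEGFC libraries, against 92.8 to 114 CPM in the others, and fibroblast markers to 30.6 and 35.4 CPM in the TBI left and right VEGFC libraries, against 48.7 to 68.5 CPM in the others. The part of the nuclei, the depth or these markers in the result was not tested.

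**Figure D2:**
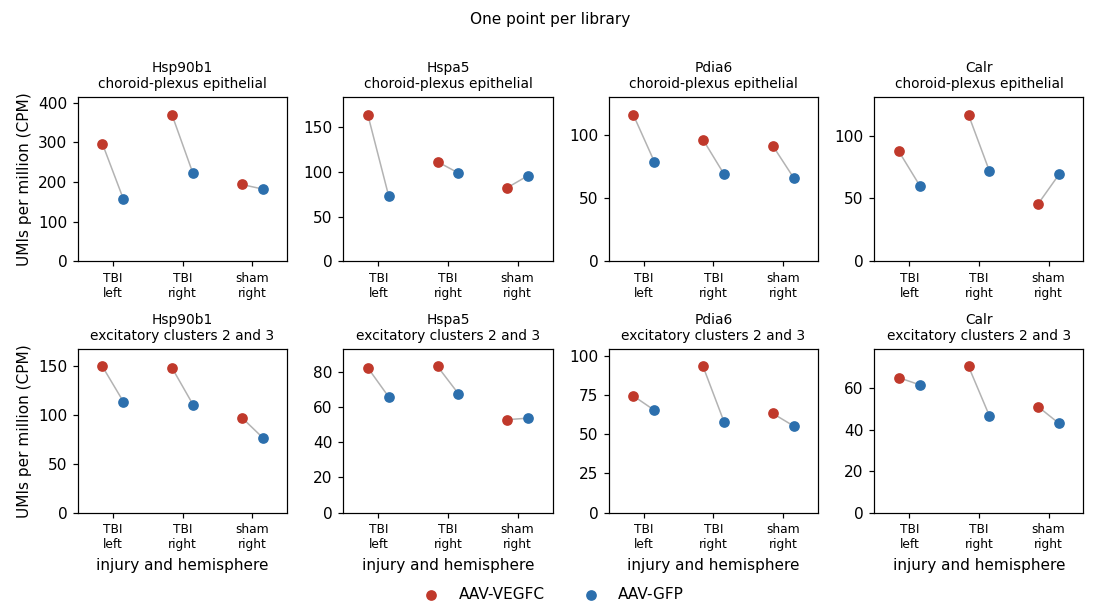
CPM of Hsp90b1, Hspa5, Pdia6 and Calr in choroid plexus epithelial nuclei (top) and excitatory clusters 2 and 3 (bottom), 1 point per library, VEGFC left of GFP in each setting and lines joining matched libraries. The TBI VEGFC points are the 2 highest for Hsp90b1 in both rows.

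The remaining pairs with the smallest p lay in glia. Xbp1 in OPC had 53.8, 47.9 and 44.1 CPM in the TBI left, TBI right and sham right VEGFC libraries, against 25.1, 19.4 and 9.39 CPM in the matching GFP libraries. The VEGFC values were all above the GFP values, on 3 to 20 UMIs per library, and the log2 fold was 1.43 (SE 0.40, adjusted p = 0.632). Atf4 in oligodendrocytes had 20.9, 9.01 and 14.5 CPM in the TBI left, TBI right and sham right VEGFC libraries, against 33.6, 28.4 and 36.8 CPM in the matching GFP libraries. Here the VEGFC values were all lower, with a log2 fold of -1.11 (SE 0.37, adjusted p = 0.48) on 5 to 19 UMIs. Hsp90b1 in astrocytes had 154, 158 and 129 CPM in the TBI left, TBI right and sham right VEGFC libraries, against 113, 122 and 127 CPM in the matching GFP libraries. The TBI pairs differed and the sham pair hardly did, with a log2 fold of 0.32 (SE 0.10, adjusted p = 0.417). Without the sham GFP library it was 0.46, without the sham VEGFC library 0.46, and without a TBI library 0.22 to 0.28. Pdia6 in microglia had 169, 213 and 129 CPM in the TBI left, TBI right and sham right VEGFC libraries, against 34.4, 94.3 and 61.5 CPM in the matching GFP libraries. The groups did not overlap, but the values rest on 2 to 35 UMIs per library, and the log2 fold was 1.41 (SE 0.45, adjusted p = 0.367).

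Medians over the group's tested genes were 0.30 in microglia (9 of 11 positive), 0.16 in OPC (16 of 23), 0.09 in excitatory neurons (23 of 32), 0.06 in oligodendrocytes (18 of 28), 0.05 in inhibitory neurons (23 of 32), 0.04 in astrocytes (18 of 30), -0.04 in fibroblasts (5 of 10) and -0.06 in mixed neurons (12 of 26). The median over all genes tested was within 0.01 of 0 in each class. In excitatory neurons all 8 genes with the element had positive folds (median 0.23), and 12 of 20 searched genes without it did (median 0.05). The 2 sets did not part this way in every class. In inhibitory neurons 8 of 8 with the element had positive folds (median 0.09), against 12 of 20 without it (0.03). In OPC 5 of 6 with the element had positive folds (median 0.34), against 9 of 14 without it (0.17). In oligodendrocytes 6 of 7 with the element had positive folds (median 0.10), against 9 of 17 without it (0.03). In astrocytes 5 of 8 with the element had positive folds (median 0.05), against 9 of 18 without it (0.01). In microglia 4 of 6 with the element had positive folds (median 0.26), against 3 of 3 without it (0.30). In mixed neurons 3 of 7 with the element had positive folds (median -0.08), against 7 of 15 without it (-0.04). In fibroblasts 1 of 5 with the element had positive folds (median -0.11), against 2 of 3 without it (0.16). The excitatory class mixes clusters whose shares differed between libraries. Excitatory cluster 10 had 26, 5 and 109 nuclei in the TBI left, TBI right and sham right VEGFC libraries, against 67, 83 and 100 in the matching GFP libraries, and excitatory cluster 5 had 71, 61 and 188 nuclei in the TBI left, TBI right and sham right VEGFC libraries, against 129, 234 and 96 in the matching GFP libraries. The inhibitory class was mixed as well. Inhibitory cluster 5 had 2, 42 and 90 nuclei in the TBI left, TBI right and sham right VEGFC libraries. The matching GFP libraries had 203, 17 and 62. Inhibitory cluster 2 had 46, 92 and 384 nuclei in these VEGFC libraries, against 169, 205 and 170 in the GFP ones. The part of these mixes in the values of either whole class, here and below, was not tested.

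**Figure D3:**
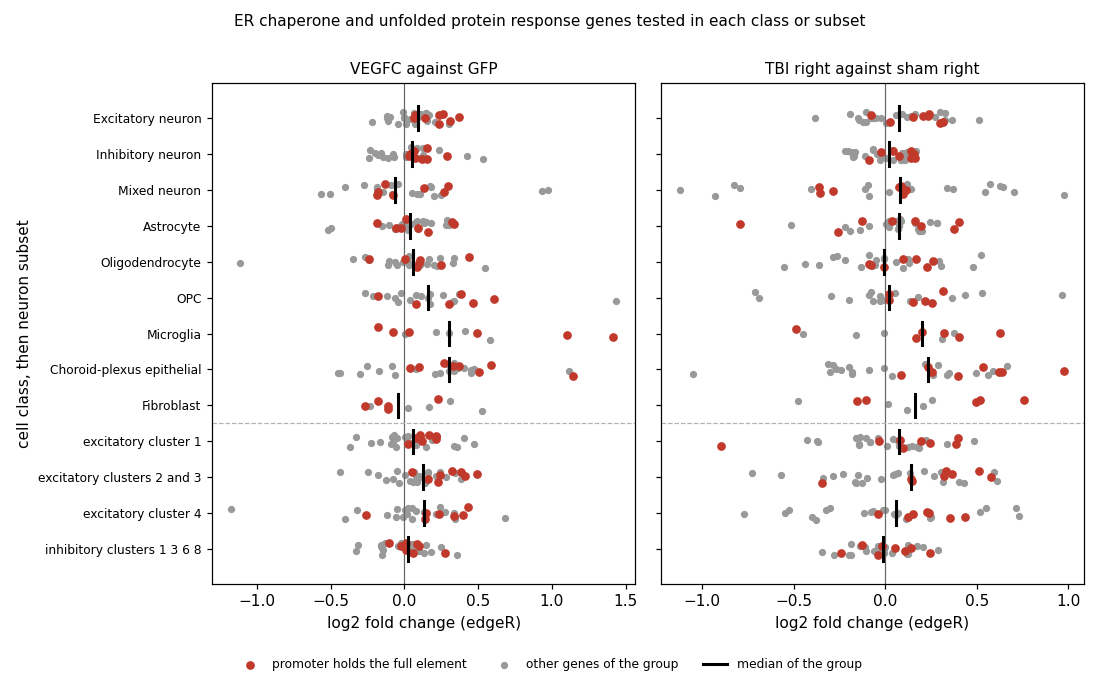
Log2 fold changes from edgeR of the group's tested genes, 1 point per gene, in 9 classes (above the dashed line) and 4 neuron subsets (below it), for VEGFC against GFP (left) and TBI right against sham right (right). Red points are genes with the full element in their promoter, grey points the others (4 of them not searched), and black bars the medians. In choroid plexus epithelial nuclei all 8 red points lie right of 0 in both panels.

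Neurons were also taken as 4 subsets of the authors' clusters, formed in earlier work on these data: excitatory cluster 1, excitatory clusters 2 and 3, excitatory cluster 4, and inhibitory clusters 1, 3, 6 and 8. Prox1, a marker of dentate granule neurons that is also found in some interneurons, had 247 to 308 CPM in the libraries of excitatory clusters 2 and 3, against 0 to 1.26 CPM in cluster 1 and 0 to 2.08 CPM in cluster 4. For VEGFC against GFP, 0 of 124 gene and subset pairs passed, against 0.0247% of all pairs, and 12 had an unadjusted p under 0.05 (9.68%), against 6.12%. DESeq2 gave 0 adjusted and 2 unadjusted pairs, and limma-voom 0 and 12. Over all genes 0 pairs passed the adjusted threshold in DESeq2 and 15 in limma-voom.

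In excitatory clusters 2 and 3, Hsp90b1 had 149.8, 148 and 97.5 CPM in the TBI left, TBI right and sham right VEGFC libraries, against 114, 111 and 76.9 CPM in the matching GFP libraries. Every VEGFC library was above its partner, though the sham VEGFC library was below both TBI GFP libraries. The log2 fold was 0.41 (SE 0.08, adjusted p = 0.0762) on 188 to 463 UMIs per library. Without a filter on low counts it was 0.42 (SE 0.09, adjusted p = 0.0079). Without the sham GFP library it was 0.43, without the sham VEGFC library 0.44, and without a TBI library 0.39 to 0.40. Pdia6 had 74.4, 93.2 and 63.2 CPM in the TBI left, TBI right and sham right VEGFC libraries, against 65.3, 58.04 and 55.2 CPM in the matching GFP libraries. The TBI right pair was the farthest apart, and the log2 fold was 0.38 (SE 0.11, adjusted p = 0.278). It was 0.45 without the sham GFP library, 0.46 without the sham VEGFC library and 0.22 to 0.46 without a TBI library. Calr had 65.01, 70.4 and 51.01 CPM in the TBI left, TBI right and sham right VEGFC libraries, against 61.6, 46.6 and 42.97 CPM in the matching GFP libraries. All 3 pairs were higher with VEGFC, by little in TBI left, and the log2 fold was 0.32 (SE 0.11, adjusted p = 0.472). Without the sham VEGFC library Dnajc3 stood at 0.37, without the sham GFP library at 0.37, and without a TBI library at 0.10 to 0.20.

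Elsewhere, Ddit3 in excitatory cluster 4 had 4.17, 9.32 and 8.86 CPM in the TBI left, TBI right and sham right VEGFC libraries, against 18.2, 13.1 and 21.2 CPM in the matching GFP libraries. The groups did not overlap, on 4 to 21 UMIs per library, but 11 of the 21 UMIs of the sham GFP right library came from 1 nucleus, without which that library had 10.2 CPM, and the log2 fold was -1.17 (SE 0.36, adjusted p = 0.605). Hsp90b1 in the inhibitory clusters had 126, 171 and 139 CPM in the TBI left, TBI right and sham right VEGFC libraries, against 131, 110.03 and 123 CPM in the matching GFP libraries. The TBI left pair went the other way, and the log2 fold was 0.27 (SE 0.10, adjusted p = 0.662). In excitatory clusters 2 and 3, 25 of 32 genes of the group had positive folds (median 0.13, against 0.00 over 13028 genes), among them all 8 with the element (median 0.28) and 13 of 20 searched without it (median 0.06). In the inhibitory clusters 6 of 8 with the element had positive folds (median 0.03), against 10 of 19 searched without it (0.03). In excitatory cluster 1 these were 8 of 8 (0.11) and 12 of 20 (0.02). In excitatory cluster 4 they were 6 of 7 (0.23) and 11 of 18 (0.02).

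The second comparison set TBI right against sham right, with the vector kept as a term, and rests on 2 matched pairs of libraries. Over the 9 classes 0 of 221 pairs passed, against 0.0782% of all pairs in edgeR, and 16 had an unadjusted p under 0.05 (7.24%), against 5.03%. DESeq2 gave 0 adjusted and 2 unadjusted pairs, and limma-voom 0 and 17. Over all genes 7 pairs passed the adjusted threshold in DESeq2 and 64 in limma-voom. In the neuron subsets, a fit added after the data were seen, 1 of 124 pairs passed, against 0.0884% of all pairs, and 17 had an unadjusted p under 0.05 (13.7%), against 5.7%. DESeq2 gave 0 adjusted and 2 unadjusted pairs there, and limma-voom 1 and 17. Over all genes of the subsets 5 pairs passed the adjusted threshold in DESeq2 and 39 in limma-voom.

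The gene that passed was Hsp90b1 in excitatory clusters 2 and 3. It had 148 and 111 CPM in the TBI right VEGFC and GFP libraries, against 97.5 and 76.9 CPM in the sham right VEGFC and GFP libraries. Both TBI libraries lay above both sham libraries, and the left TBI libraries, outside this contrast, stood at 149.8 and 114 CPM. GRP94 mRNA was higher in the TBI right than in the sham right libraries, by a log2 fold of 0.58 (SE 0.11, adjusted p = 0.014) in edgeR's quasi-likelihood test. It was 1 of 18 genes past the threshold in this subset, or 0.138% of those tested. The call was lost in DESeq2 (adjusted p = 1.0), without the vector term (adjusted p = 0.336), with doublet scores of at most 0.05 (adjusted p = 0.251) and without the sham VEGFC, TBI GFP right or TBI VEGFC right library (adjusted p = 0.0943, 0.133 and 0.554), while the log2 fold stayed between 0.51 and 0.62 in all of these and without the sham GFP library.

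Other chaperones in these clusters pointed the same way without passing. Hspa5 had 82.9 and 67.4 CPM in the TBI right VEGFC and GFP libraries, against 52.8 and 53.6 CPM in the sham right VEGFC and GFP libraries. The TBI libraries were both higher, and the log2 fold was 0.51 (SE 0.13, adjusted p = 0.206). It was 0.67 without the sham GFP library and 0.31 without the sham VEGFC library. In such a fit the sham side is 1 library, which is assumed to vary like the other groups, and the fold is taken against that library alone, here and for the genes below. Hyou1 had 25.3 and 20.9 CPM in the TBI right VEGFC and GFP libraries, against 15.7 and 15.1 CPM in the sham right VEGFC and GFP libraries, with a log2 fold of 0.59 (SE 0.22, adjusted p = 0.654). Dnajc3, the co-chaperone p58IPK, had 96.7 and 80.1 CPM in the TBI right VEGFC and GFP libraries, against 68.8 and 74.1 CPM in the sham right VEGFC and GFP libraries. Its log2 fold was 0.32 (SE 0.13, adjusted p = 0.699), or 0.54 without the sham GFP library and 0.06 without the sham VEGFC library. The isomerases Pdia6, Pdia3 and Pdia4 had log2 folds of 0.36, 0.26 and 0.21. Ern1 and Xbp1, the sensor and its target, stood at 0.43 and 0.40. Atf6 (-0.23), Sec61b (-0.73) and Asns (-0.57) had negative folds with unadjusted p under 0.05. In all 12 of 32 genes had an unadjusted p under 0.05, against 5.97% of genes in this subset.

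By role, all 3 chaperones had positive folds in these clusters (median 0.58), as did all 4 isomerases (median 0.29) and 3 of 4 co-chaperones (median 0.31). The ERAD genes split 4 to 4 (median -0.03), and both translocation genes were negative (median -0.44). Of the 8 genes with the element 7 had positive folds (median 0.32), and of the searched genes without it 10 of 20 (median 0.01), against 49.5% of 13028 genes. By pair, 7 of 8 element genes were higher after TBI between the VEGFC libraries and 7 of 8 between the GFP libraries. The median difference was 0.47 between the VEGFC libraries and 0.11 between the GFP libraries on the log2(CPM + 1) scale. Over the 32 genes it was 0.18 and 0.05. Median UMIs per nucleus were 3517 and 3435 in the TBI right VEGFC and GFP libraries, against 2765 and 3564 in the sham ones, and these ranges overlapped.

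**Figure D4:**
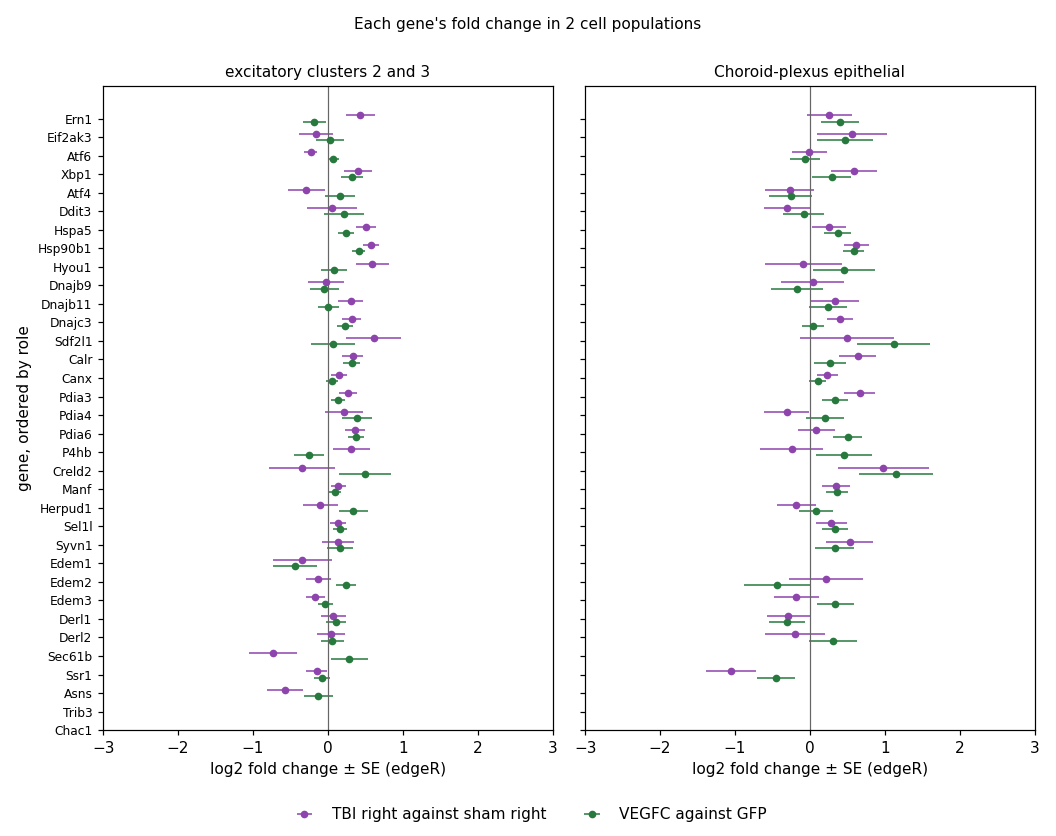
Log2 fold change ± SE from edgeR for the genes of the group, ordered by role from sensors (top) to ATF4 targets (bottom), in excitatory clusters 2 and 3 (left) and choroid plexus epithelial nuclei (right). Purple is TBI right against sham right and green is VEGFC against GFP, and genes below the filter on low counts have no point. Hsp90b1 lies at 0.58 (purple) and 0.41 (green) in the left panel.

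Among the classes, choroid plexus epithelial nuclei held 4 of the 5 smallest p. Hsp90b1 there had 369 and 222 CPM in the TBI right VEGFC and GFP libraries, against 194 and 182 CPM in the sham right VEGFC and GFP libraries. Both TBI libraries were above both sham libraries, the VEGFC one by far, and the log2 fold was 0.62 (SE 0.17, adjusted p = 0.131). It was 0.98 without the sham GFP library and 0.26 without the sham VEGFC library. Pdia3 had 172 and 149 CPM in the TBI right VEGFC and GFP libraries, against 96.95 and 107 CPM in the sham right VEGFC and GFP libraries. The groups did not overlap, with a log2 fold of 0.66 (SE 0.20, adjusted p = 0.3). Calr had 116 and 71.7 CPM in the TBI right VEGFC and GFP libraries, against 45.7 and 69.2 CPM in the sham right VEGFC and GFP libraries. The VEGFC pair was wide apart and the GFP pair was not, with a log2 fold of 0.64 (SE 0.25, adjusted p = 0.65). Ssr1, or TRAP alpha, which sits beside the Sec61 channel, had 25.3 and 27.1 CPM in the TBI right VEGFC and GFP libraries, against 42.1 and 64.5 CPM in the sham right VEGFC and GFP libraries. It was lower in both TBI libraries, on 10 to 41 UMIs per library, with a log2 fold of -1.05 (SE 0.33, adjusted p = 0.321). An unadjusted p under 0.05 was found for 5 of 29 genes of the group in this class, against 5.41% of genes.

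All 8 genes with the element had positive folds in choroid plexus epithelial nuclei (median 0.46), and 9 of 17 searched genes without it did (median 0.03). In astrocytes 5 of 8 with the element had positive folds (median 0.10), against 13 of 18 without it (0.06), and in mixed neurons 4 of 7 (median 0.08), against 8 of 15 (0.02). By pair the 8 genes were all higher in the TBI right library with either vector, with a median difference of 0.68 between the VEGFC libraries and 0.10 between the GFP libraries on the log2(CPM + 1) scale. Hsp90b1 in excitatory neurons as a whole had 119 and 91.7 CPM in the TBI right VEGFC and GFP libraries, against 87 and 82.8 CPM in the sham right VEGFC and GFP libraries. The TBI libraries were both higher, and the log2 fold was 0.32 (SE 0.10, adjusted p = 0.973). Hspa5 in astrocytes had 108 and 81.2 CPM in the TBI right VEGFC and GFP libraries, against 65.1 and 84.6 CPM in the sham right VEGFC and GFP libraries. The VEGFC pair differed and the GFP pair went slightly the other way, with a log2 fold of 0.38 (SE 0.15, adjusted p = 0.548). It was 0.74 without the sham GFP library and -0.01 without the sham VEGFC library. The VEGFC and the TBI comparisons share libraries, so their values are not independent.

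The third comparison set TBI left against TBI right, the side away from the impact against the injured side, and shares the TBI right libraries with the second. It gave 0 of 221 pairs past the threshold over the classes, against 0.0318% of all pairs, and 8 with an unadjusted p under 0.05 (3.62%), against 3.49%. In the neuron subsets 0 of 124 passed, against 0.00822%, and 5 had an unadjusted p under 0.05 (4.03%), against 3.7%. DESeq2 gave 0 adjusted pairs in both, with 1 and 0 unadjusted, and limma-voom 0 in both, with 9 and 4. Over all genes 3 and 0 pairs passed the adjusted threshold in DESeq2, and 18 and 8 in limma-voom.

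Ssr1 in choroid plexus epithelial nuclei had the smallest p, with 52.4 and 72.6 CPM in the TBI left VEGFC and GFP libraries, against 25.3 and 27.1 CPM in the TBI right VEGFC and GFP libraries. Both left libraries were higher, and the log2 fold was 1.29 (SE 0.33, adjusted p = 0.351). Hsp90b1 in the same class had 297 and 158 CPM in the TBI left VEGFC and GFP libraries, against 369 and 222 CPM in the TBI right VEGFC and GFP libraries. It was lower on the left with either vector, with a log2 fold of -0.38 (SE 0.17, adjusted p = 0.999). Hsp90b1 in OPC went the other way, at 0.45 (SE 0.20, adjusted p = 0.991). Dnajc3 in oligodendrocytes stood at 0.44 (SE 0.20, adjusted p = 0.998) and Eif2ak3, which codes for PERK, in astrocytes at -0.57 (SE 0.26, adjusted p = 1.0). Medians over the group ran from -0.14 in fibroblasts to 0.13 in OPC.

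An interaction term compared the VEGFC effect in TBI libraries with the one in sham libraries and left 1 residual degree of freedom. Over the classes 0 of 233 pairs passed, against 0.242% of all pairs, and 14 had an unadjusted p under 0.05 (6.01%), against 6.67%. In the neuron subsets 0 of 125 passed, against 0.159%, and 11 had an unadjusted p under 0.05 (8.80%), against 7.33%. DESeq2 gave 0 adjusted and 0 unadjusted pairs in both, and limma-voom 0 adjusted in both, with 15 and 11 unadjusted. Over all genes 0 pairs passed the adjusted threshold in DESeq2 in both, and 252 and 85 in limma-voom.

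Hspa5 in astrocytes had 99.9, 108 and 65.1 CPM in the TBI left, TBI right and sham right VEGFC libraries, against 84.7, 81.2 and 84.6 CPM in the matching GFP libraries. The VEGFC library was higher than its partner in both TBI settings and lower after sham, and the difference of log2 folds was 0.75 (SE 0.25, adjusted p = 0.241). Pdia3 in excitatory neurons had 66.2, 74.8 and 58.5 CPM in the TBI left, TBI right and sham right VEGFC libraries, against 61.2, 62.6 and 69.2 CPM in the matching GFP libraries, with the same order of signs and a difference of 0.49 (SE 0.15, adjusted p = 0.471). Calr in choroid plexus epithelial nuclei had 87.3, 116 and 45.7 CPM in the TBI left, TBI right and sham right VEGFC libraries, against 60.2, 71.7 and 69.2 CPM in the matching GFP libraries, again with the sham pair reversed, and a difference of 1.24 (SE 0.46, adjusted p = 0.583). For Hsp90b1 in that class the difference was 0.74 (SE 0.28, adjusted p = 0.601). For Hsp90b1 in excitatory clusters 2 and 3 it was 0.09 (SE 0.18, adjusted p = 0.948), where the VEGFC library was higher in all 3 settings. In the neuron subsets the genes with the smallest adjusted p, not past the threshold, were Pdia3 and Edem1. Pdia3 had positive differences in 4 of 4 subsets (0.13 to 0.90), and Edem1 in 3 of 4 (-0.37 to 1.85).

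Other genes of the same pathways, 111 in 7 lists of which 110 were in the matrix, were fitted in the same way. They covered further sensors and regulators, the integrated stress response, folding factors, glycoprotein quality control, ERAD, translocation with oligosaccharyl transfer, and retrieval with export. Over the 9 classes 0 of 668 gene and class pairs passed for VEGFC against GFP, for TBI right against sham right or for TBI left against TBI right, and 0 of 717 for the interaction. Unadjusted p under 0.05 were found for 30, 26, 17 and 38 pairs in that order, or 4.49%, 3.89%, 2.54% and 5.30%, each below the share over all genes given above. By list the shares ran from 0.877% to 7.94%, 1.20% to 11.8%, 0% to 4.41% and 1.45% to 9.87%. The highest list thus lay above the share over all genes each time. The 11.8% was 8 of 68 pairs of the integrated stress response, and the 9.87% was 15 of 152 pairs of translocation and oligosaccharyl transfer. In the neuron subsets, Spcs1, a signal peptidase subunit, passed for the interaction in excitatory clusters 2 and 3, at -1.37 (SE 0.33, adjusted p = 0.0214 in edgeR). It was the 1 that passed of 102 other pathway genes tested there. Of all 13584 genes tested there, 27 passed with negative and 10 with positive values. For VEGFC against GFP, 327 folds were positive and 341 negative, with a median of 0.00. Of the lists, the integrated stress response genes had 22 positive and 46 negative folds (median -0.10), and translocation and oligosaccharyl transfer had 76 and 68 (median 0.02). In choroid plexus epithelial nuclei 48 of 83 other pathway genes had positive folds (median 0.04), and in excitatory clusters 2 and 3 53 of 100 (median 0.01), where the group itself had medians of 0.30 and 0.13.

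The smallest p for VEGFC against GFP were those of Sel1l3 in oligodendrocytes, at -1.32 (SE 0.42, adjusted p = 0.376), and Creb3, an ER-bound transcription factor, in astrocytes, at -0.86 (SE 0.29, adjusted p = 0.449). For TBI right against sham right they were Atf5 in astrocytes, a stress transcription factor, at 1.34 (SE 0.42, adjusted p = 0.231), and the amino acid transporter Slc7a5 in astrocytes, at -1.16 (SE 0.40, adjusted p = 0.349). For TBI left against TBI right they were Sil1, a nucleotide exchange factor of BiP, in choroid plexus epithelial nuclei, at 0.64 (SE 0.19, adjusted p = 0.761), and Psat1, of serine synthesis, in astrocytes, at -0.55 (SE 0.19, adjusted p = 1.0). For the interaction they were Uggt1, the folding sensor of glycoproteins, in microglia, which had 0 UMIs in the sham VEGFC library (adjusted p = 0.296), and the stress gene Nupr1 in astrocytes, at -2.21 (SE 0.71, adjusted p = 0.208).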

How the data were processed

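Nuclear RNA of the hippocampus was sequenced with 10x Genomics 3' v3.1 chemistry. Per the submitters' processing notes, Cell Ranger 7.0.1, Scanpy and the build mm10 were used. The authors deposited whole-number UMI counts per gene and nucleus, with class and cluster names; the deposited percent of mitochondrial and of ribosomal UMIs and the deposited doublet score per nucleus were used to describe libraries. Doublet scores end at 0.099, and no doublet caller was run here. No source used here states if the counting used strand.

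Counts were summed per class or neuron subset and library. CPM was each gene's share of that sum, and levels used log2(CPM + 1). edgeR 4.0.16 (R 4.3.3) fitted TMM-scaled sums after filterByExpr with the quasi-likelihood test and Benjamini-Hochberg adjustment over all genes of a class, threshold 0.05. The model held the setting (sham right, TBI right, TBI left) and the vector, with 2 residual degrees of freedom, and 1 with the interaction. Each gene's spread was drawn toward a trend over all genes tested. The trend replaced it in choroid plexus epithelial nuclei, in fibroblasts without the interaction and in some interaction fits, and nearly so in oligodendrocytes. Excitatory clusters 2 and 3 were among these interaction fits. Each SE was derived from the fold and its F statistic (size of the log2 fold over root F). The steps were tested on simulated data. Alternatives were RLE factors, library totals, no filter, DESeq2 1.42.0, limma-voom (limma 3.58.1), no covariate, each library left out, doublet scores of at most 0.05 and at most 2% neuronal RNA from 200 neuron genes.

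Members and lists were chosen with earlier results of these data known, and so were the neuron subsets; in these, all comparisons but VEGFC against GFP were added after the data were seen. Named pairs were those past the threshold or, where too few passed, the 5 with the smallest p (3 for the interaction, 2 for other pathway genes). In the neuron subsets the pairs with the smallest p were named for VEGFC against GFP only. Further genes of choroid plexus epithelial nuclei and of excitatory clusters 2 and 3 were named after their values were seen. Promoter windows of Atf6, Manf, Derl1 and Hyou1 were not analysed here.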

Additional observations from a re-analysis of the deposited data

Results flagged for a closer look

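In excitatory clusters 2 and 3, the effect of VEGFC on Spcs1, a subunit of the signal peptidase complex of the ER, differed between TBI and sham libraries. Spcs1 had 24.1, 24.3 and 32.5 CPM in the TBI left, TBI right and sham right VEGFC libraries, against 26.9, 31.1 and 14.7 CPM in the matching GFP libraries. The sham GFP library was the lowest, on 36 UMIs. The interaction was -1.37 (SE 0.33, adjusted p = 0.0214) in edgeR's quasi-likelihood test, a fit added after the data were seen. In that fit 27 of 13584 genes passed with negative and 10 with positive values. For Spcs1 other settings were also run. Its interaction was -1.36 (adjusted p = 0.0482) in limma-voom, -1.37 (adjusted p = 1.0) in DESeq2 and -1.17 (adjusted p = 0.354) with doublet scores of at most 0.05. The sham side rests on 1 pair of libraries, and the cause was not tested.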

How the results depend on the processing

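No paired analysis was possible because each replicate number is used once, so no number joins libraries across groups; setting and vector were terms of the model instead, and the labels do not say whether libraries share mice. Levels across classes moved by less than their SD with TMM-scaled values and without any 1 library.

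Counts of genes past the threshold were those of the report except as follows. In the neuron subsets VEGFC against GFP gave 1 without the filter on low counts, and TBI right against sham right gave 0 in DESeq2, 0 without the covariate and 0 with doublet scores of at most 0.05. Leaving out 1 library gave 0 to 2 genes in the classes for VEGFC against GFP and 0 to 2 for TBI right against sham right, and 0 to 3 for each of these in the neuron subsets; the report names these genes and libraries. The cause was not tested.

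For VEGFC against GFP in mixed neurons the median log2 fold over the group was -0.06 and became 0.08 without the filter on low counts. For TBI left against TBI right in mixed neurons the median log2 fold over the group was 0.04 and became 0.07 with library totals, 0.13 without the filter on low counts, 0.06 in DESeq2, -0.02 in limma-voom, -0.03 without the covariate and -0.18 with doublet scores of at most 0.05. For VEGFC against GFP in astrocytes the median log2 fold over the group was 0.04 and became -0.03 with doublet scores of at most 0.05. For TBI right against sham right in astrocytes the median log2 fold over the group was 0.07 and became 0.08 with RLE factors, 0.04 with library totals, 0.07 without the filter on low counts, 0.08 in DESeq2, 0.07 in limma-voom, 0.07 without the covariate and 0.10 with doublet scores of at most 0.05. For VEGFC against GFP in OPC the median log2 fold over the group was 0.16 and became 0.13 with library totals, 0.11 without the filter on low counts and 0.07 with doublet scores of at most 0.05. For VEGFC against GFP in microglia the median log2 fold over the group was 0.30 and became 0.18 without the filter on low counts and 0.19 without the covariate. For TBI right against sham right in microglia the median log2 fold over the group was 0.20 and became -0.10 without the filter on low counts. For TBI left against TBI right in microglia the median log2 fold over the group was -0.04 and became -0.10 in DESeq2. For TBI right against sham right in fibroblasts the median log2 fold over the group was 0.16 and became 0.12 with library totals.

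With 1 library left out, medians ranged as follows. They ran for TBI right against sham right from -0.06 to 0.10 in inhibitory neurons, -0.06 to 0.17 in mixed neurons, 0.04 to 0.09 in astrocytes, -0.09 to 0.11 in oligodendrocytes, 0.07 to 0.21 in microglia, 0.06 to 0.23 in choroid plexus epithelial nuclei and 0.12 to 0.39 in fibroblasts. They ran for VEGFC against GFP from -0.06 to 0.07 in mixed neurons, 0.07 to 0.18 in OPC and 0.11 to 0.59 in microglia. They ran for TBI left against TBI right from -0.06 to 0.13 in mixed neurons, -0.03 to 0.07 in astrocytes, 0.06 to 0.23 in OPC, -0.19 to 0.08 in microglia and -0.51 to -0.09 in fibroblasts.

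The interaction was not run with a library left out, since that leaves no residual degrees of freedom. The doublet limit gave no value where it left a class of a library with 0 nuclei, and the limit of 2% neuronal RNA was run for non-neuronal classes only. Scaling by library totals moved the median of all genes by more than 0.1 in 1 of 52 fits, to -0.107. Low counts limit microglia and fibroblasts most, where 11 and 10 genes of the group could be tested.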
